A study of Homo sapiens with 4 samples.

Results

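The E2 ubiquitin-conjugating enzymes are the middle step of ubiquitin transfer. An E1 enzyme activates ubiquitin, an E2 enzyme carries it on a cysteine, and an E3 ligase brings the loaded E2 to a substrate. The E2 often decides which linkage the ubiquitin chain has, and a few members carry the ubiquitin-like modifiers SUMO, NEDD8 or ISG15 in place of ubiquitin. In dividing cells the family is best known for the anaphase-promoting complex, whose mitotic substrates receive their chains from UBE2C and UBE2S.

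Poly(A) RNA was sequenced in 2 libraries from cells with a METTL14 overexpression plasmid and 2 libraries from cells with a negative control plasmid. METTL14 is the partner of METTL3 in the complex that places N6-methyladenosine on mRNA. Every library came from a 5-fluorouracil-resistant derivative of HCT-8, an established line of human colorectal cancer. The cells of both groups had also received 100 ug/mL cycloheximide, which stops ribosomes from elongating. No library here lacks cycloheximide, drug resistance or transfection, and the sources used here do not say whether the resistant line is 1 clone. The submitters state that the experiment was done in 2 independent runs, and where these were not separate cultures the p-values measure technical spread only.

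The family was taken as every gene whose symbol starts with UBE2 and a further letter, with readthrough rows that carry a hyphen left out. This gave 36 of the 20323 gene rows. Of the 38 rows that match, the readthrough row UBE2F-SCLY and a second UBE2W row, which the files describe as a readthrough with STAU2, were set aside. CDC34 and BIRC6, which are E2 enzymes under other names, are therefore not members. Of the 36 genes, 31 passed the filter on low counts, and each of these 31 averaged at least 10 CPM (the count scaled to a common library size, with TMM factors) in both groups. UBE2U, UBE2QL1 and UBE2NL had 0 counts in every library, which allows a level of up to 0.156 CPM in any library (3 counts of its total). UBE2L5 had 1 and 0 counts with METTL14 against 0 and 0 in the controls. UBE2L6, the E2 of ISG15, had 3 and 2 counts with METTL14 and 3 and 4 counts in the controls.

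Libraries held between 19206661 and 20161082 counts. METTL14 itself had 390.1 and 420.7 CPM with its plasmid, against 24.6 and 30.7 CPM in the controls (log2 fold change 3.88, SE 0.141, edgeR adjusted p = 7.33e-05). The spread between the 2 METTL14 libraries was smaller than that between the 2 controls (chi-square per degree of freedom 3.29 against 28.8). In fits with 1 control left out, only the METTL14 pair supplies the spread within groups. With 1 METTL14 library left out, only the control pair does. Calls gained or lost in such fits therefore depend on which pair remains and are not evidence about single genes. The epithelial markers EPCAM and CDH1 stood between 292.3 and 521.3 CPM in the 4 libraries. At an edgeR adjusted p under 0.05, 4 of the 11 listed epithelial markers were higher, 3 were lower and 4 were not called. CDH1 was among the higher ones and EPCAM was not called. Over all tested genes 27.0% were higher and 28.1% were lower. Of 11 epithelial markers, 11 with METTL14 and 10 in the controls reached 1 CPM, with summed levels of 9400 and 9179 CPM against 18270 and 11949 CPM. Most of this sum came from KRT8 and KRT18, both called lower. KRT8 had 4548 and 4487 CPM with METTL14 against 10346 and 6546 CPM, and KRT18 had 2223 and 2151 CPM against 5237 and 3057 CPM. Leukocyte markers reached 1 CPM for 3 of 6 with METTL14 and 2 of 6 in the controls (sums of 5.09 and 6.37 CPM against 13.6 and 18.4 CPM, CD3E at 0 in every library). Fibroblast markers reached it for 3 of 6 and 4 of 6 (19.6 and 18.0 CPM against 12.6 and 16.0 CPM), and endothelial markers for 1 of 4 and 0 of 4 (1.85 and 1.53 CPM against 0.988 and 0.411 CPM, KDR at 0 in every library). The part of other cells in the results was not tested.

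The comparison asks how transcripts of E2 enzymes respond to the METTL14 plasmid, relative to its negative control. The 4 members with at least 2-fold lower transcripts were UBE2T, UBE2C, UBE2S and UBE2N, which serve Fanconi repair, the anaphase-promoting complex and K63-linked chains. UBE2H, the E2 of the CTLH ubiquitin ligase, was the member with the largest rise, 3.10-fold. In all, 12 of the 31 tested members were lower, 4 were higher and 15 did not pass the test (quasi-likelihood test of edgeR, p adjusted over 12700 genes by Benjamini and Hochberg, threshold 0.05). Over all tested genes 28.1% were lower, 27.0% were higher and 55.1% were called in either direction, and the called share of the family (51.6%) lies near this background. The lower share was 38.7% and the higher share 12.9% of tested members. A change of at least 2-fold was called lower in 4 members and higher in 1, against 8.8% and 10.2% of all tested genes. The median log2 fold change was -0.13 over the members and -0.01 over all tested genes. No overlap between METTL14 and control libraries was seen in 26 of 31 members (83.9%), against 79.8% of all tested genes. Without control replicate 1 or control replicate 2 the number of higher members became 8 and 7, and without either METTL14 library the number of lower members became 8. Once a length and GC trend was taken out, 10 members were lower and 9 higher.

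**Figure D1:**
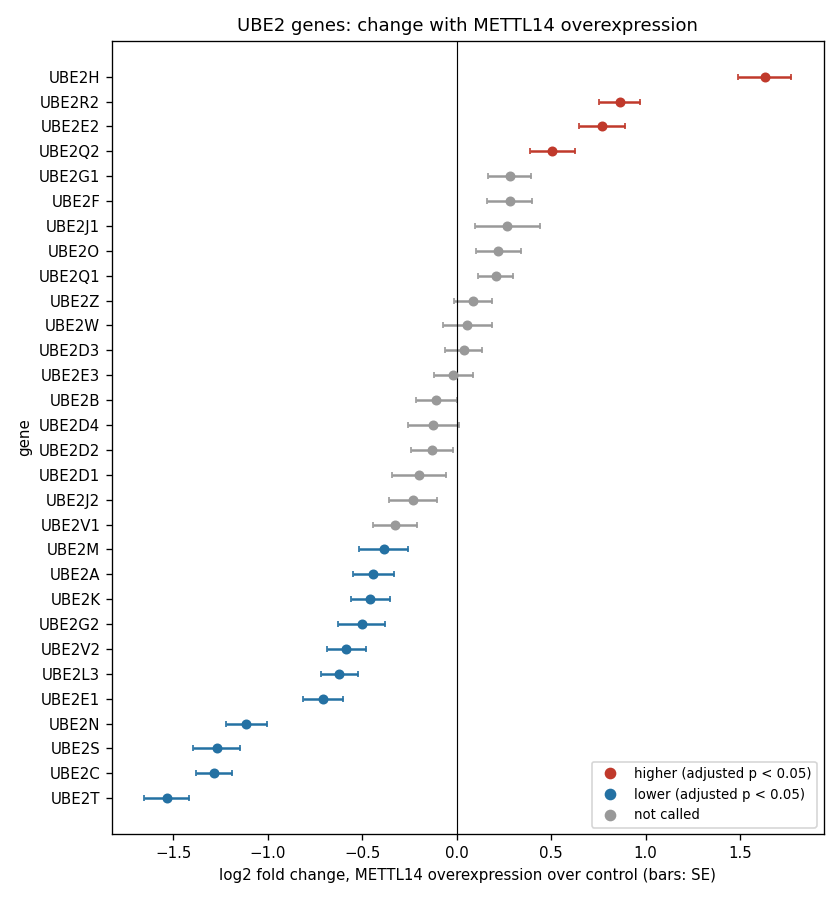
Log2 fold change of 30 of the 31 tested UBE2 genes, METTL14 overexpression over control, with bars of 1 SE and colours for the call at an adjusted p of 0.05. The lower genes run down to UBE2T at -1.53 and the 4 higher genes up to UBE2H at 1.63.

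UBE2C and UBE2S work in sequence at the anaphase-promoting complex: UBE2C attaches the first ubiquitins and UBE2S lengthens the chain. UBE2C (ENSG00000175063, GRCh38 chromosome 20, 45812576 to 45816957, plus strand) had 51.7 and 53.4 CPM with METTL14, against 130.5 and 125.3 CPM in the controls. Both METTL14 libraries lay far below both controls (52.5 ± 1.15 against 127.9 ± 3.67 CPM, SD, n = 2), and the transcript fell 2.43-fold (log2 fold change -1.28, SE 0.0963, edgeR adjusted p = 0.000123). UBE2S (ENSG00000108106, chromosome 19, 55399745 to 55407777, minus strand) had 187.1 and 176.1 CPM with METTL14, against 482.3 and 393.0 CPM in the controls. The groups did not overlap although the controls differed among themselves, and UBE2S fell 2.41-fold (log2 fold change -1.27, SE 0.124, edgeR adjusted p = 0.000258). The ratio of UBE2S to UBE2C counts was 3.62 and 3.30 with METTL14 and 3.70 and 3.14 in the controls, so the balance of the 2 transcripts overlapped between the groups.

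Of 17 genes of the anaphase-promoting complex, its activators and its inhibitor, 11 were lower and none was higher, with a median log2 fold change of -0.42; for this and each list that follows, the shares over all tested genes were 28.1% lower and 27.0% higher. Lower were the activator CDC20 (-1.33, SE 0.112), the inhibitor FBXO5 (-1.85, SE 0.19), the subunits ANAPC15 (-1.49, SE 0.117) and CDC27 (-0.75, SE 0.106), and ANAPC11 (-0.70, SE 0.142), the RING subunit to which UBE2C binds. ANAPC2, the cullin subunit that binds UBE2C as well, had 42.9 ± 3.72 CPM with METTL14 and 49.8 ± 8.33 CPM in the controls (SD, n = 2) and did not pass the test. The count of lower genes was 5 without METTL14 overexpression replicate 1 and 6 without replicate 2. All 10 markers of cycling cells were lower as well, among them MKI67 (149.7 and 177.1 CPM with METTL14, 573.1 and 543.1 CPM in the controls) and CCNB1 (77.4 and 76.3 CPM against 304.8 and 291.5 CPM). Their summed level was 811.6 and 824.1 CPM with METTL14 and 2776 and 2485 CPM in the controls. In bulk RNA, fewer dividing cells and less RNA per dividing cell cannot be told apart.

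UBE2T ubiquitinates FANCD2 and FANCI together with the ligase FANCL, the key step of the Fanconi anemia pathway. UBE2T (ENSG00000077152, chromosome 1, 202331657 to 202341980, minus strand) had 26.9 and 26.0 CPM with METTL14, against 82.1 and 71.2 CPM in the controls. This was the largest fall of the family, 2.90-fold (log2 fold change -1.53, SE 0.118, edgeR adjusted p = 0.000133), with every METTL14 library below every control. Its ligase and substrates moved the same way: FANCL was at -1.63 (SE 0.202), FANCI at -1.43 (SE 0.0951) and FANCD2 at -1.21 (SE 0.108), each past the test.

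UBE2A and UBE2B are near-identical enzymes that mark PCNA with RAD18 and histone H2B with RNF20 and RNF40. UBE2A had 80.4 and 77.5 CPM with METTL14, against 115.1 and 99.1 CPM in the controls, and was called lower (log2 fold change -0.44, SE 0.11, edgeR adjusted p = 0.0118). UBE2B had 45.2 and 47.5 CPM with METTL14, against 47.7 and 52.1 CPM in the controls, and did not pass the test (-0.11, SE 0.108). Whether the 2 copies differ in their change was not tested. The UBE2A call was lost without either METTL14 library and after removal of the trend on length and GC (-0.17). RAD18 was at -1.64 (SE 0.118), PCNA at -1.70 (SE 0.118) and RNF20 at -0.53 (SE 0.119), each called lower, and RNF40 had 198.8 ± 5.25 CPM with METTL14 and 216.2 ± 48.4 CPM in the controls (SD, n = 2), not called. Of the 12 genes listed as DNA damage partners 11 were lower and none was higher, with a median log2 fold change of -1.34. PCNA is also 1 of the 10 markers of cycling cells, all of which were lower. For this list, the Fanconi genes included, fewer dividing cells and less RNA per dividing cell cannot be told apart either.

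UBE2N builds K63-linked chains as a dimer with UBE2V1 or UBE2V2, which lack the catalytic cysteine; the UBE2V1 dimer serves NF-kB signalling and the UBE2V2 dimer DNA damage tolerance. UBE2N (ENSG00000177889, chromosome 12, 93405673 to 93442262, minus strand) had 63.9 and 67.4 CPM with METTL14, against 151.3 and 132.9 CPM in the controls, a 2.16-fold fall (log2 fold change -1.11, SE 0.108, edgeR adjusted p = 0.000254). UBE2V2 had 39.3 and 39.1 CPM with METTL14, against 60.4 and 57.1 CPM in the controls, and fell by 0.58 on the log2 scale (SE 0.104). UBE2V1 had 131.0 and 129.7 CPM with METTL14, against 179.3 and 147.4 CPM in the controls, and missed the threshold narrowly (-0.33, SE 0.119, edgeR adjusted p = 0.0503). All 3 transcripts stood below the controls in both METTL14 libraries, and the ratio of UBE2N to UBE2V1 counts was 0.488 and 0.520 with METTL14 against 0.844 and 0.901 in the controls. UBE2V1 was called lower with replicate number as a block in the fit (adjusted p = 0.0133), with no filter and with no robust step. The UBE2V2 call was lost with the length and GC trend removed (-0.09). UBE2N shares exon sequence with NUDT4 on the opposite strand and UBE2V1 with the readthrough row PEDS1-UBE2V1, and both had estimated counts that were not whole in all 4 libraries, which leaves their values less certain.

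Of 14 genes that work with K63-linked or linear chains, 4 were higher and 1 was lower (median log2 fold change 0.09). The higher share is near the 27.0% of all tested genes. The higher ones were RBCK1 (0.69, SE 0.0977) and SHARPIN (0.38, SE 0.115), 2 subunits of the linear chain ligase, and TAB3 (1.08, SE 0.175) and TAB2 (0.53, SE 0.117), which bind K63-linked chains. RNF31, a further subunit of the linear chain ligase, was not called (0.16, SE 0.143). TRAF2, an adaptor of tumour necrosis factor receptors, was lower (-0.63, SE 0.213). Without METTL14 overexpression replicate 2 the counts were 2 higher and 0 lower, and without either control library 2 genes were lower.

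Promoter sequences of the enzymes of DNA repair and division and of a member that rose are shown because these members moved in opposite directions. They are the 250 bases before the first listed RefSeq start on GRCh38.p14, 5′ to 3′, with capitals on matches on either strand to the CHR element TTTGAA, the CCAAT box CCAAT, the E2F letters TTTGGCGC or TTTCCCGC, and the cAMP response element TGACGTCA.
UBE2T (chr1:202341937-202342186, minus strand): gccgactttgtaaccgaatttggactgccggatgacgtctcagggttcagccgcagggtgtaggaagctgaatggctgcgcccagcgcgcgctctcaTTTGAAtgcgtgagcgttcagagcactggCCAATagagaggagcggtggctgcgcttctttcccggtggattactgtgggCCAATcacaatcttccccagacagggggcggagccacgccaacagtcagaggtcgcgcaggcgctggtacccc
UBE2S (chr19:55407789-55408038, minus strand): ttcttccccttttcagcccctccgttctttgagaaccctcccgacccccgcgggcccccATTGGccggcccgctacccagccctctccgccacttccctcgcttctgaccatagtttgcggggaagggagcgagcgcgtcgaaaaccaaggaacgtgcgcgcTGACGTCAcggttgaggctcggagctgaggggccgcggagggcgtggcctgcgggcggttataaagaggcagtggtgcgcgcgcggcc
UBE2R2 (chr9:33816910-33817159, plus strand): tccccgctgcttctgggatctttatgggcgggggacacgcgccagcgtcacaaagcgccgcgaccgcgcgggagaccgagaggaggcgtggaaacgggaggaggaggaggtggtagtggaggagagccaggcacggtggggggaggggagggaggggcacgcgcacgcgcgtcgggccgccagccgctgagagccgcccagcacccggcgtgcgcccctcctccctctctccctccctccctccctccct

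The UBE2T window holds 1 CHR match and 2 CCAAT matches, the UBE2S window 1 CCAAT match and 1 cAMP response element match, and the UBE2R2 window none of the letters searched. The windows are not placed alike against the GENCODE starts. The UBE2R2 window ends at 33817159, before the GENCODE start at 33817567, and the bases between were not searched. The UBE2T window overlaps its GENCODE gene, which ends at 202341980. Of the 27 members with an entry, 8 hold CCAAT, 3 hold the CHR letters, 1 holds the cAMP response element and none holds the E2F letters. Over 27305 RefSeq genes the shares were 33.0%, 13.6%, 1.77% and 1.96%. By call, CCAAT was present in 2 of 9 lower members, 0 of 3 higher members and 5 of 12 that did not pass the test. UBE2B, UBE2C, UBE2H, UBE2L5, UBE2NL, UBE2Q1, UBE2V2 and UBE2W were among those with no entry.

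Among genes of the ubiquitin-like modifiers, the E1 of SUMO is a pair of SAE1, which fell (-0.82, SE 0.113), and UBA2, which had 198.8 ± 4.93 CPM with METTL14 and 241.1 ± 21.0 CPM in the controls (SD, n = 2) and did not pass. The modifiers SUMO3 (-1.18, SE 0.129) and SUMO2 (-0.63, SE 0.106) were both lower. Of 14 SUMO ligases and proteases 5 were lower and 1 was higher, with RANBP2, a nuclear pore protein with ligase activity, at -0.94 (SE 0.141) and the ligase PIAS3 at 1.02 (SE 0.107). The lower count was 2 without either METTL14 library, and the higher count was 4 without control replicate 2.

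UBE2M and UBE2F load NEDD8 onto cullins, UBE2M through RBX1 and UBE2F through RNF7. UBE2M had 84.4 and 82.7 CPM with METTL14, against 122.3 and 96.0 CPM in the controls, and was called lower (log2 fold change -0.39, SE 0.131, edgeR adjusted p = 0.0389), a call that was lost without either METTL14 library. UBE2F had 34.2 and 35.2 CPM with METTL14, against 26.8 and 30.3 CPM in the controls, and did not pass (0.28, SE 0.118, edgeR adjusted p = 0.0798); it passed as higher once the length and GC trend was taken out (0.50) and without control replicate 2 (0.37). UBE2F shares exon sequence with its readthrough row and had counts that were not whole in 3 libraries. The ratio of UBE2F to UBE2M counts was 0.406 and 0.426 with METTL14 against 0.219 and 0.316 in the controls. RBX1 fell (-0.92, SE 0.11), and RNF7 had 46.8 ± 2.66 CPM with METTL14 and 43.2 ± 5.91 CPM in the controls (SD, n = 2), not called. Of the NEDD8 E1 pair, NAE1 fell (-0.57, SE 0.0963) and UBA3 had 42.6 ± 1.10 CPM with METTL14 and 42.8 ± 7.41 CPM in the controls, not called.

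Of 19 genes of cullin-RING ligases and neddylation, 11 were lower and 4 were higher (median log2 fold change -0.32). SKP2, the F-box protein that targets the cell cycle inhibitor p27, was lower (-0.93, SE 0.0981), as was the adaptor SKP1 (-0.62, SE 0.0926), while the atypical cullins CUL9 (1.07, SE 0.136) and CUL7 (0.94, SE 0.116) and the neddylation cofactor DCUN1D2 (0.92, SE 0.135) were higher. The lower count was 3 without METTL14 overexpression replicate 1, 4 without replicate 2 and 4 once the length and GC trend was taken out.

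UBE2L6 was near 0 in every library, and ISG15, the modifier it carries, had 101.7 ± 0.358 CPM with METTL14 and 243.2 ± 8.97 CPM in the controls (SD, n = 2; log2 fold change -1.26, SE 0.096). UBA7, the E1 of ISG15, was higher (1.26, SE 0.194). UBE2Z, which takes ubiquitin or FAT10 from the E1 enzyme UBA6, had 166.2 and 171.2 CPM with METTL14, against 165.7 and 152.1 CPM in the controls, and did not pass (0.09, SE 0.0986), though it did without control replicate 1 (0.15). UBA6 itself fell (-0.71, SE 0.099). FAT10 (UBD) did not pass the filter. Of 6 tested genes of the ISG15 and FAT10 pathway, 3 were lower and 1 was higher (median log2 fold change -0.45). Among 10 E1 enzymes in all, 3 were lower and 1 was higher, and without control replicate 1 these counts were 5 and 3. UBA1, the main E1 of ubiquitin, had 691.0 ± 23.5 CPM with METTL14 and 642.6 ± 86.4 CPM in the controls, not called.

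Of 13 tested genes of ubiquitin and its relatives, 11 were lower and none was higher (median log2 fold change -0.63). Among the genes that encode ubiquitin, RPS27A (-0.65, SE 0.0949) and UBB (-0.50, SE 0.0951) were lower. RPS27A and FAU, which was lower too (-0.92, SE 0.105), also encode ribosomal proteins. The lower count was 7 without either METTL14 library as well as after removal of the trend on length and GC.

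The D and E classes of the family work with a wide range of RING ligases, and most of them did not pass the test. UBE2D3, the D-class gene with the highest level, had 385.1 and 386.8 CPM with METTL14, against 357.9 and 394.1 CPM in the controls, and both METTL14 libraries lay inside the range of the controls (log2 fold change 0.04, SE 0.0985). UBE2D2 (-0.13, SE 0.109), UBE2D1 (-0.20, SE 0.144), UBE2D4 (-0.12, SE 0.135) and UBE2E3 (-0.02, SE 0.102) did not pass either. UBE2D3 passed as higher once the length and GC trend was taken out (0.25), and UBE2D2 as lower without control replicate 2 (-0.235). The other 2 E-class genes, both on the plus strand of chromosome 3, moved in opposite directions. UBE2E1 (ENSG00000170142, 23805903 to 23891316) had 55.1 and 61.0 CPM with METTL14, against 90.5 and 99.0 CPM in the controls (log2 fold change -0.71, SE 0.106, edgeR adjusted p = 0.00133). UBE2E2 (ENSG00000182247, 23203020 to 23591793) had 33.0 and 29.5 CPM with METTL14, against 18.2 and 18.5 CPM in the controls (0.77, SE 0.122, edgeR adjusted p = 0.00169). The ratio of UBE2E2 to UBE2E1 counts was 0.599 and 0.483 with METTL14 and 0.201 and 0.187 in the controls, without overlap. UBE2E1 counts were not whole in any library.

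UBE2J1 and UBE2J2 sit in the membrane of the endoplasmic reticulum and UBE2G2 is recruited there, all for the disposal of misfolded proteins. UBE2G2 had 66.8 and 67.3 CPM with METTL14, against 105.7 and 84.4 CPM in the controls, and was called lower (log2 fold change -0.50, SE 0.126, edgeR adjusted p = 0.0121), a call lost without either METTL14 library. UBE2J1 had 97.6 and 94.0 CPM with METTL14, against 64.7 and 94.4 CPM in the controls, so control replicate 1 stood apart and the gene did not pass (0.27, SE 0.17). It was called higher without control replicate 2 (0.56) and once the length and GC trend was taken out (0.48). UBE2J2 had 95.2 and 95.8 CPM with METTL14, against 124.9 and 99.5 CPM in the controls, not called (-0.23, SE 0.126). It was called lower without control replicate 2 (-0.39) and once the length and GC trend was taken out (-0.41). Of 15 genes of endoplasmic reticulum degradation, 4 were higher and 5 lower, shares near the 27.0% and 28.1% of all tested genes. Among them were the ligase SYVN1 at 0.44 (SE 0.108), and the extraction factors UFD1 and VCP at -0.83 (SE 0.0978) and -0.43 (SE 0.0951). Without METTL14 overexpression replicate 1 the counts were 1 higher and 2 lower, without replicate 2 they were 2 and 3, and without control replicate 2 they were 7 and 8.

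UBE2R2 is a paralog of CDC34 and extends chains with cullin-RING ligases. UBE2R2 (ENSG00000107341, chromosome 9, 33817567 to 33920404, plus strand) had 152.6 and 153.8 CPM with METTL14, against 90.04 and 78.4 CPM in the controls, and rose 1.82-fold (log2 fold change 0.86, SE 0.107, edgeR adjusted p = 0.00059). CDC34 had 75.4 ± 3.08 CPM with METTL14 and 68.8 ± 13.3 CPM in the controls (SD, n = 2) and was not called (0.13, SE 0.141). UBE2K, which builds K48-linked chains, had 93.3 and 98.5 CPM with METTL14, against 124.3 and 138.7 CPM in the controls, and was called lower (-0.46, SE 0.104, edgeR adjusted p = 0.00801). That call was lost without either METTL14 library and after removal of the length and GC trend (-0.11). UBE2G1, an E2 of CUL4 ligases, had 38.4 and 37.9 CPM with METTL14, against 32.9 and 29.9 CPM in the controls, and did not pass (0.28, SE 0.113). It passed as higher with a filter of 5 CPM (0.31), with library totals (0.33), once the length and GC trend was taken out (0.46) and without control replicate 1 (0.36).

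UBE2H (ENSG00000186591, chromosome 7, 129830732 to 129952949, minus strand) had 248.2 and 258.0 CPM with METTL14, against 70.7 and 92.7 CPM in the controls. The 2 groups lay far apart, and the log2 fold change was 1.63 (SE 0.141, edgeR adjusted p = 0.000179). UBE2H pairs with the CTLH complex, the human form of the yeast GID ligase. Of 16 genes of CTLH and of N-degron ligases, 6 were higher and 1 was lower (median log2 fold change 0.16). The CTLH members WDR26 (1.04, SE 0.11), GID4 (0.98, SE 0.115), a substrate receptor, and RMND5A (0.48, SE 0.0958) were higher, as was the N-degron ligase UBR4 (0.96, SE 0.146), and the CTLH member MAEA was lower (-0.87, SE 0.133). Without METTL14 overexpression replicate 1 the higher count was 4, and without replicate 2 it was 3; with the trend removed, 4 were higher and 3 lower.

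UBE2L3 transfers ubiquitin to the active cysteine of RBR and HECT ligases. It had 112.9 and 119.1 CPM with METTL14, against 182.8 and 173.7 CPM in the controls, and fell by 0.62 on the log2 scale (SE 0.097, edgeR adjusted p = 0.00157). Of 12 RBR ligases 6 were higher and none was lower (median log2 fold change 0.54), among them RNF19A (1.56, SE 0.157), RNF144A (0.72, SE 0.127) and ANKIB1 (0.52, SE 0.11). CUL9, also counted as higher in the cullin list, is among these 6. UBE2L3 moved opposite to the called members of its ligase class. Without METTL14 overexpression replicate 2 the count of higher RBR ligases was 4, and without control replicate 1 it was 9.

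UBE2Q2 had 31.8 and 35.8 CPM with METTL14, against 24.3 and 23.2 CPM in the controls, and was called higher (0.51 on the log2 scale, SE 0.12, edgeR adjusted p = 0.00967). GENCODE names 8 pseudogenes of it, and the call was lost without METTL14 overexpression replicate 2. UBE2Q1 (0.21, SE 0.0939), UBE2O, a large enzyme with both E2 and E3 activity (0.22, SE 0.119), and UBE2W, which attaches ubiquitin to protein N-termini (0.06, SE 0.128), did not pass. UBE2Q1 passed as higher with library totals (0.26) and without either control library, UBE2O without control replicate 1 (0.37), and UBE2W once the length and GC trend was taken out (0.42). Of the 8 genes with an E2 fold outside the UBE2 names, UFC1, the E2 of UFM1 (-0.63, SE 0.108), and the autophagy enzyme ATG3 (-0.44, SE 0.1) were lower and none was higher; with the length and GC trend removed, 2 were higher and none was lower.

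**Figure D2:**
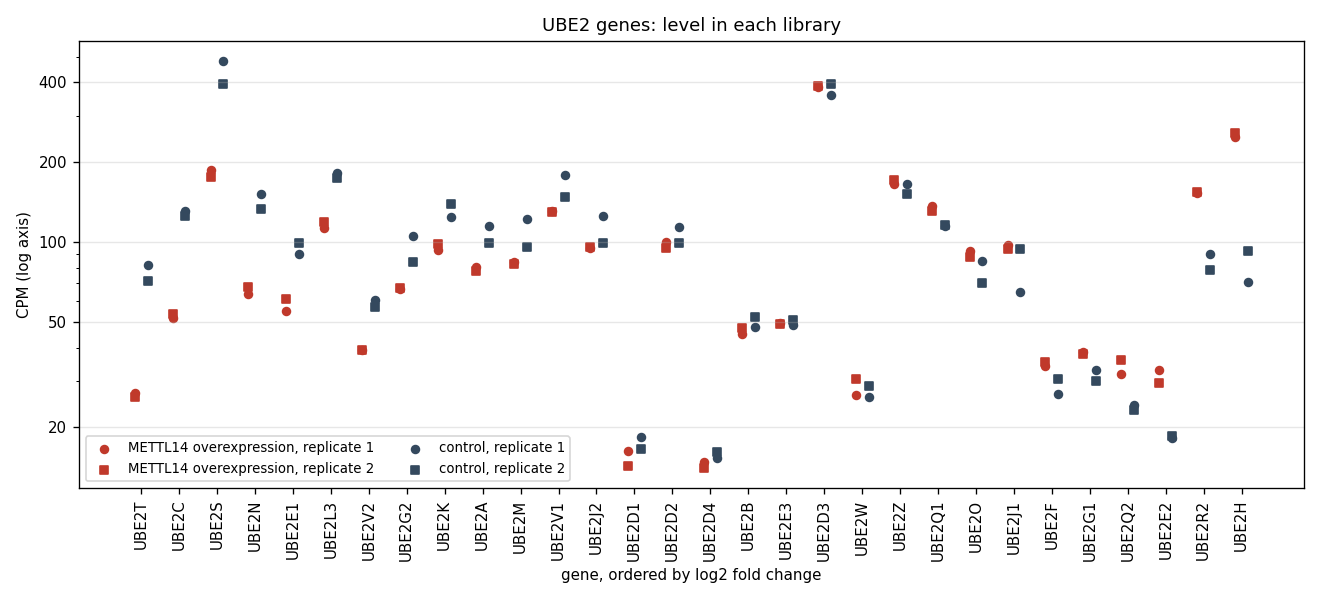
CPM (log axis) of 30 of the 31 tested UBE2 genes in each library, METTL14 overexpression left of control, ordered by log2 fold change. UBE2S lies at 187.1 and 176.1 CPM with METTL14 against 482.3 and 393.0 CPM in the controls, and UBE2H at 248.2 and 258.0 CPM against 70.7 and 92.7 CPM.

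Summed over the family, E2 transcripts made up 2863 and 2876 CPM with METTL14 and 3450 and 3236 CPM in the controls. The sum was not tested. Of that sum, UBE2D3 held the largest share with METTL14, 13.5 and 13.5%, against 10.4 and 12.2% in the controls. UBE2S held 6.53 and 6.12% of it with METTL14 against 14.0 and 12.1% in the controls, and UBE2H held 8.67 and 8.97% against 2.05 and 2.86%. UBE2R2 held 5.33 and 5.35% with METTL14 against 2.61 and 2.42%.

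Levels of different genes can be compared only per transcript length, here as CPM per kilobase of the longest coding transcript. With METTL14 the order began with UBE2D3 (92.6 ± 0.291 CPM per kilobase), UBE2S (71.3 ± 3.05) and UBE2C (57.5 ± 1.25). In the controls it began with UBE2S (171.8 ± 24.8 CPM per kilobase), UBE2C (139.9 ± 4.01), UBE2D3 (90.3 ± 6.15) and UBE2T (84.4 ± 8.53; SD, n = 2 throughout). UBE2D3 and UBE2T did not separate in the controls. UBE2H stood at rank 7 with METTL14 (49.1 ± 1.35 CPM per kilobase) and at rank 22 in the controls (15.9 ± 3.01), and UBE2T at rank 17 (29.1 ± 0.728) and rank 4. UBE2D4 and UBE2W were the lowest in both groups, at 3.64 ± 0.137 and 3.38 ± 0.342 CPM per kilobase with METTL14 and 3.96 ± 0.146 and 3.25 ± 0.216 in the controls. Neighbours in the order had libraries apart in 20 of 30 cases with METTL14 and in 10 of 30 in the controls, so much of the middle of the order is not resolved. The order also depended on the transcript length used. With the median in place of the longest transcript, UBE2H stood at rank 2 with METTL14 and rank 6 in the controls, UBE2T at ranks 25 and 10, UBE2C at ranks 8 and 4, and UBE2S at ranks 4 and 1. UBE2D3 stood at ranks 1 and 2, and UBE2W at ranks 29 and 28, so that UBE2W was no longer lowest.

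**Figure D3:**
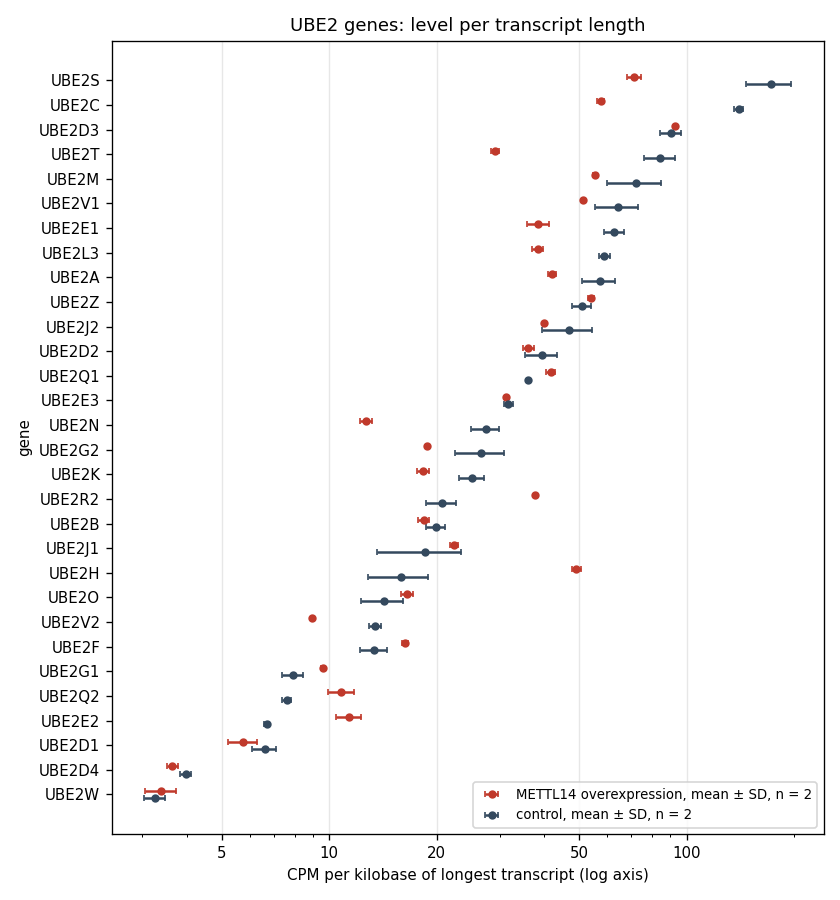
CPM per kilobase of the longest transcript (log axis) for 30 of the 31 tested UBE2 genes, mean ± SD of 2 libraries, METTL14 overexpression above control, ordered by the control mean. UBE2S and UBE2C lead in the controls at 171.8 and 139.9, and UBE2H stands at 49.1 with METTL14 against 15.9.

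Across the 31 tested members the log2 fold change correlated with the log2 length of the longest transcript (r = 0.47), with the log2 control level (r = -0.41) and with GC content (r = -0.11). These are descriptions of genes that share libraries, not tests. Across 12540 tested genes with a coding transcript the correlation with length was r = 0.13. The median longest transcript was 2788 bases in the 12 lower members, 3602 bases in the 4 higher members and 3122 bases in the 15 that did not pass. The part of transcript length in the results was not tested beyond the removal of the trend.

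**Figure D4:**
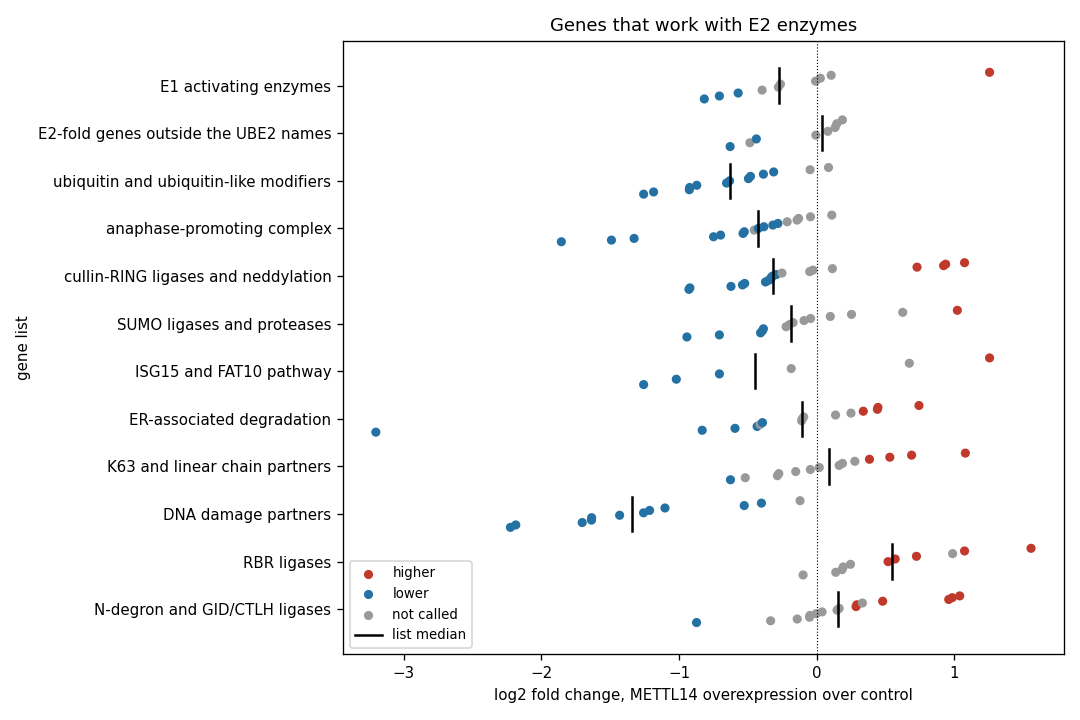
Log2 fold change, METTL14 overexpression over control, of the tested genes in 12 lists that work with E2 enzymes, each dot 1 gene coloured by its call, with a bar at the list median; 1 gene beyond the axis is not drawn. The DNA damage list lies lowest (median -1.34) and the RBR ligases highest (median 0.54).

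Over the 152 tested genes of the 12 lists together, 62 were lower, 25 were higher and 65 did not pass the test, beside 28.1% lower and 27.0% higher over all tested genes. Without METTL14 overexpression replicate 1 the numbers were 35 and 18, without replicate 2 they were 39 and 16, and without control replicate 1 or 2 the higher genes numbered 38 and 39.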

How the data were processed

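The authors deposited expected counts for each gene, not normalized; the submitters' processing notes name the build hg18 and, without versions, RSEM, StringTie, HISAT2, Bowtie2 and fastp. Since 20171 of 20323 gene identifiers are in GENCODE release 29 on GRCh38, coordinates and transcript lengths given are those of GENCODE, and the build and strand setting behind the counts are unclear. RSEM divides reads among similar genes, so values of paralogs and overlapping genes are less certain. In all, 6 members had counts that were not exactly whole. Besides UBE2Q2, GENCODE names pseudogenes of other members. Among these are 15 of UBE2V1, 4 each of UBE2C, UBE2D3 and UBE2V2, 3 of UBE2F and 2 of UBE2S.

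Rounded counts went through filterByExpr (minimum count 10), TMM scaling and the robust quasi-likelihood test without covariates, all in edgeR 4.0.16 under R 4.3.3, and p-values were adjusted (Benjamini-Hochberg) over 12700 genes. Each standard error is the absolute log2 fold change over the root of its F statistic, an approximation. Where a symbol had several rows, the one with the highest mean was used. Members, lists and roles were chosen with earlier results of these data known; all members may be named, and in each list up to 6 genes with the smallest p plus direct partners of a member. UBA1, UBB, RNF7, RNF20, RNF31 and RNF40 fall outside that rule and were chosen after their values were seen. Counts were simulated with the library sizes and gene dispersions of this comparison (12556 genes, 200 changed). Of the changed genes, 48% at 1.5-fold, 90% at 2-fold and 100% at 4-fold were recovered, with 6 of 175 calls false. The simulation changed a far smaller share of genes than the 55.1% called in the data. It also gave both groups the same dispersion, so its rates do not describe this comparison. Alternatives were DESeq2 1.42.0, its size factors, library totals, limma-voom (limma 3.58.1), glmTreat, other filters, no robust step, a replicate block, no mitochondrial genes, rows of a symbol summed, median transcript length and each library left out; removal of a loess trend on length and GC was added after seeing the data. Other calculations used Python 3.11.15 and pandas 2.3.3. Some genes are not reported here by name and 1 UBE2 member is not drawn, but counts, medians and sums include them. The floor of 3 counts covers counting error only, while standard errors also include the spread between libraries.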

Additional observations from a re-analysis of the deposited data

How the results depend on the processing

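No called member changed direction under any alternative run, and 10 of the 16 kept their call under all of them other than the test against 1.5-fold, among them UBE2T, UBE2C, UBE2S, UBE2N, UBE2E1, UBE2L3, UBE2H, UBE2R2 and UBE2E2. Against 1.5-fold, glmTreat called 2 members higher and 4 lower, 11 and 24 partner genes, and 1416 and 1357 of all genes; its stricter null makes fewer calls by construction. With the length and GC trend removed, 9 members were higher. Leaving out 1 library gave 3 to 8 higher and 8 to 15 lower members, 16 to 39 higher and 35 to 75 lower partner genes, and 2307 to 4452 higher and 2307 to 4575 lower genes of all tested.

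Members that did not pass the test changed sign as follows. With the trend removed, UBE2B was at 0.18, UBE2D1 at 0.33, UBE2E3 at 0.14, UBE2O at -0.23 and UBE2Z at -0.0589 on the log2 scale. UBE2E3 was at 0.0108 with a filter of 5 CPM and 0.0317 with library totals. With 1 library left out, UBE2E3 ranged over -0.0447 to 0.01115, UBE2D3 over -0.0273 to 0.106 and UBE2W over -0.0504 to 0.1595. The cause was not tested.

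With median in place of longest transcript length, the median level per kilobase over the tested members was 70.4 in the controls, against 28.04. Replicate numbers are shared between groups, and the deviations of same-numbered libraries correlated at 0.04. With 2 libraries per group, this value cannot show whether same-numbered libraries came from the same run. A replicate block gave 4 higher and 13 lower members, 28 and 70 partner genes, and 3797 and 3903 genes of all tested. The number of libraries, 2 per group, limits every value.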
